A study of Mus musculus with 9 samples.

Results

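The genes described here encode the enzymes that make serine from a glycolytic intermediate and the enzymes that load its carbon onto folate, together with *Atf4*, the transcription factor known for driving many of them. The members are *Phgdh*, *Psat1*, *Psph*, *Shmt1*, *Shmt2*, *Mthfd1*, *Mthfd1l*, *Mthfd2* and *Atf4*, taken by their gene symbols, which makes 9 of the 55471 genes in the count table. RNA was sequenced from dendritic cells (DCs) grown from the bone marrow of WT C57BL/6 female mice of 8 to 20 weeks with GM-CSF, a growth factor whose cultures are known to yield macrophage-like cells beside DCs. Conditions with 3 libraries each were compared after 6 h, namely unstimulated DCs, DCs given LPS (100 ng/mL), the bacterial ligand of TLR4, and DCs given IFN-β (1000 U/mL), a type I interferon. The libraries of a condition carry the letters A, B and C, and the labels do not say whether they came from separate cultures or mice, so that p-values measure the spread between these libraries, which may be technical.

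PHGDH, PSAT1 and PSPH act in sequence to turn 3-phosphoglycerate into serine. Serine hydroxymethyltransferase (SHMT1 in the cytosol, SHMT2 in mitochondria) then splits serine into glycine and a carbon unit carried by tetrahydrofolate. In mitochondria MTHFD2 and MTHFD1L oxidize that unit and release it as formate, and in the cytosol MTHFD1 takes formate up again for purine and thymidylate synthesis, a supply that proliferating cells and activated lymphocytes are known to draw on. ATF4 is controlled largely at translation, through phosphorylation of eIF2α, so that its mRNA level is not a measure of its protein.

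The libraries held 33425803 to 43735199 counts, and all 9 members passed the filter on low counts that left 16260 genes for testing. Each of the 8 stimulation genes checked (among them *Il12b*, *Nos2* and *Ifit1*) rose under LPS and 7 of them rose under IFN-β. The 8 DC markers summed to 5340 to 8084 CPM (counts relative to the total of the library, with totals scaled by TMM factors) and the 6 macrophage markers to 1719 to 2749 CPM across the 9 libraries. Markers of neutrophils summed to at most 25.6 CPM, those of mast cells and basophils to at most 1.22 CPM and those of lymphocytes to at most 0.354 CPM, where 4 of the 6 lymphocyte markers had 3 counts or fewer in every library. The 16 proliferation genes summed to 662 to 772 CPM in unstimulated DCs, 386 to 405 CPM with LPS and 547 to 552 CPM with IFN-β, and their part in the member values below was not tested. In bulk RNA a lower level can stand for fewer cells with the transcript or for less of it per cell, and these cannot be told apart.

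LPS changed 7 of the 9 members, with 5 lower and 2 higher, against 68.2% of all genes tested that were called in this comparison (35.4% lower and 32.8% higher). IFN-β changed 6 members, with 4 lower and 2 higher, against 46.9% of all genes (23.3% lower and 23.6% higher). The median log2 fold change of the members was −1.19 under LPS and −0.34 under IFN-β, where the median over all genes was −0.04 and −0.02. *Shmt1*, *Shmt2*, *Mthfd1* and *Mthfd1l* fell under both stimuli and *Mthfd2* rose under both. *Atf4* was called higher under both, by 1.12-fold and 1.23-fold, and the values became −0.42 and −0.01 on the log2 scale when libraries were scaled by size alone. *Psat1* and *Psph* passed the test under neither, and *Phgdh* passed it under LPS. Here a gene was called when the adjusted p of edgeR's quasi-likelihood test (Benjamini-Hochberg, over all genes tested) was under 0.05, and both stimuli were set against the same unstimulated libraries.

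**Figure D1:**
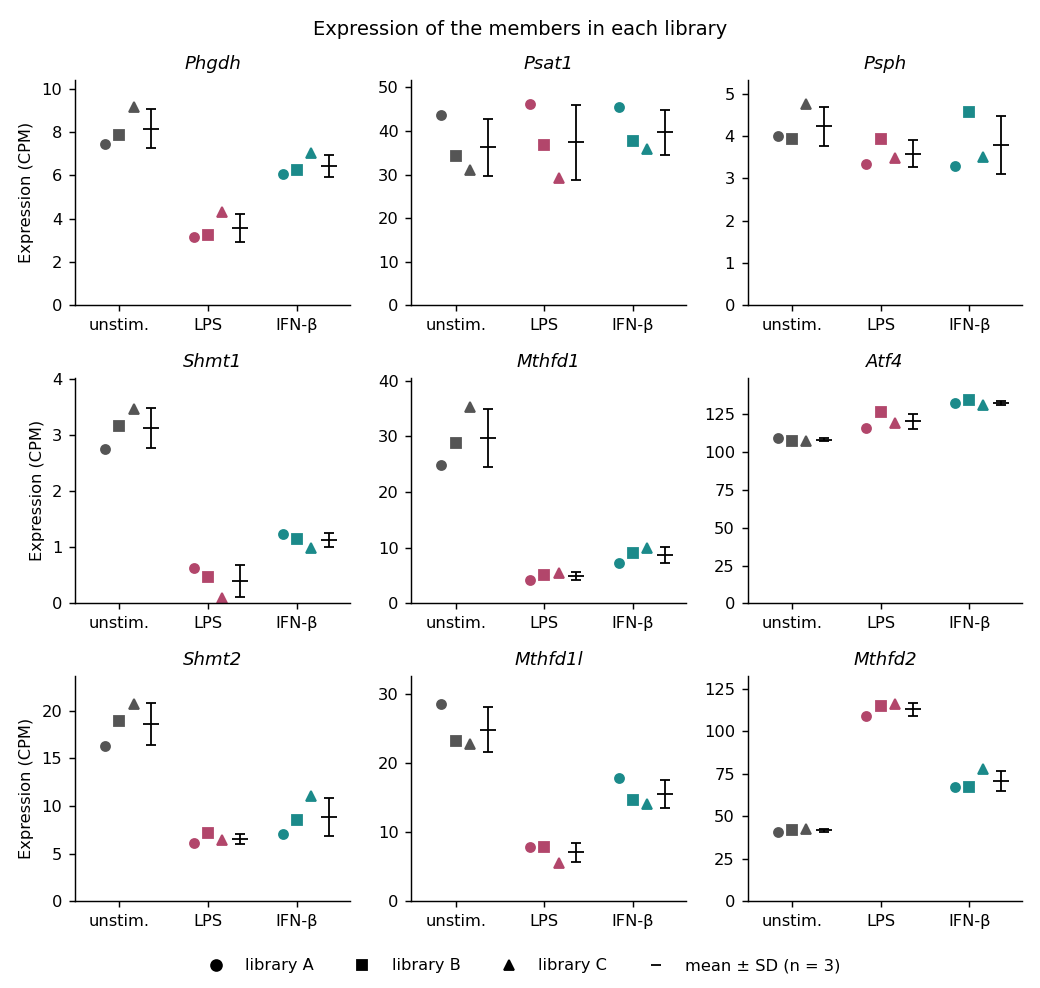
Expression of the 9 members in CPM (vertical axes, linear, from 0) in each of the 9 libraries, with circles, squares and triangles for libraries A, B and C and black bars for the mean ± SD of 3 libraries. *Mthfd2* rose from about 41.7 CPM to 113 CPM with LPS while *Mthfd1* went from 29.7 to 4.9 CPM, and *Psat1* spread as widely within each group as between them.

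Of the 3 serine synthesis enzymes, *Phgdh* was called under LPS and none was called under IFN-β. *Phgdh* encodes the dehydrogenase of the entry step and lies on the minus strand of chromosome 3 (GRCm38, chr3:98313170-98339990). Its level was 7.45, 7.88 and 9.16 CPM in the unstimulated libraries A, B and C, 3.18, 3.23 and 4.33 CPM with LPS and 6.07, 6.27 and 7.02 CPM with IFN-β. The 3 groups did not overlap, with the LPS libraries lowest and the IFN-β libraries between. *Phgdh* fell 2.28-fold under LPS (log2 fold change −1.19, SE 0.14, adjusted p = 2.5e-05, edgeR). Under IFN-β its log2 fold change was −0.34 (SE 0.13, 95% interval −0.64 to −0.04, adjusted p = 0.0589, edgeR), and with the library letter as a block in the model, which pairs libraries of one letter, it was −0.34 with an adjusted p of 0.00638. It also passed the threshold without LPS library C (adjusted p = 0.0275, edgeR). *Phgdh* was higher with IFN-β than with LPS (log2 difference 0.84, SE 0.14, adjusted p = 6.4e-04, edgeR). Its processed copy *Phgdh-ps1* had 1 count in 1 library and none in the others.

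*Psat1* encodes the aminotransferase of the middle step (chr19:15904678-15947337, minus strand). It gave 43.7, 34.2 and 31 CPM in unstimulated DCs, 46.2, 36.8 and 29.2 CPM with LPS and 45.5, 37.8 and 35.8 CPM with IFN-β. The groups overlapped, and in each of them library A was highest and library C lowest. The log2 fold change was 0.04 under LPS (95% interval −0.34 to 0.42, adjusted p = 0.84, edgeR) and 0.13 under IFN-β (95% interval −0.25 to 0.51, adjusted p = 0.567, edgeR). Scaling by library size alone, which moved the median over all genes to −0.62 (LPS) and −0.32 (IFN-β), gave −0.54 under LPS (adjusted p = 0.00548, edgeR) and −0.17 under IFN-β for *Psat1*, and these follow that shift.

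*Psph* encodes the phosphatase that releases serine (chr5:129765558-129787449, minus strand). It was low throughout, with 4, 3.93 and 4.76 CPM in unstimulated DCs, 3.33, 3.93 and 3.47 CPM with LPS and 3.28, 4.57 and 3.51 CPM with IFN-β. These ranges overlapped, and neither the LPS value (log2 fold change −0.24, 95% interval −0.59 to 0.11, adjusted p = 0.194, edgeR) nor the IFN-β value (−0.16, 95% interval −0.50 to 0.18, adjusted p = 0.419, edgeR) passed the test. Of the exon length of *Psph*, 10.4% lay opposite exons of *Cct6a*, a gene with 2781 to 5625 counts per library, and the strand setting of the counting is not given in the sources used here. With the same shift of all genes, scaling by library size alone put *Psph* at −0.82 under LPS and −0.47 under IFN-β, past the threshold.

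*Shmt1* encodes the cytosolic serine hydroxymethyltransferase (chr11:60788104-60811718, minus strand) and was the member with the lowest level per kilobase in each condition. Its level was 2.76, 3.17 and 3.47 CPM in unstimulated DCs, 0.637, 0.466 and 0.0922 CPM with LPS and 1.24, 1.14 and 0.994 CPM with IFN-β. As counts the LPS libraries held 18, 16 and 3 reads, against 109 to 154 in the unstimulated libraries, and library C with LPS stood at the floor of 3 counts used here. The groups did not overlap. *Shmt1* fell 7.95-fold under LPS (log2 fold change −2.99, SE 0.38, adjusted p = 3.6e-05, edgeR), and the log2 fold change lay between −3.45 and −2.51 when single libraries were left out. It fell 2.77-fold under IFN-β (log2 fold change −1.47, SE 0.32, adjusted p = 0.00324, edgeR). The difference between the stimuli was 1.52 on the log2 scale (SE 0.40, adjusted p = 0.00978, edgeR), with IFN-β higher. *Smcr8*, which shares 4.74% of the exon length of *Shmt1* on the opposite strand, moved the other way (0.82 and 0.70).

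*Shmt2*, its mitochondrial counterpart (chr10:127517123-127522444, minus strand), gave 16.3, 18.9 and 20.7 CPM in unstimulated DCs, 6.09, 7.14 and 6.42 CPM with LPS and 7.03, 8.52 and 11 CPM with IFN-β. Every stimulated library was below every unstimulated one, and the LPS and IFN-β libraries overlapped. It fell 2.84-fold under LPS (log2 fold change −1.51, SE 0.16, adjusted p = 7.9e-06, edgeR) and 2.11-fold under IFN-β (−1.08, SE 0.15, adjusted p = 2.2e-04, edgeR). The difference between the stimuli was 0.43 (SE 0.16, adjusted p = 0.0447, edgeR), and it passed the threshold in 3 of the 9 fits that left out 1 library, being lost without unstimulated library B, without any of the LPS libraries and without IFN-β library B or C. Without library C of IFN-β it was 0.24 (adjusted p = 0.175, edgeR).

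*Mthfd1* encodes the cytosolic enzyme that both activates formate and interconverts the folate-bound carbon (chr12:76255298-76319803, plus strand). Its level was 24.9, 28.9 and 35.3 CPM in unstimulated DCs, 4.14, 5.13 and 5.44 CPM with LPS and 7.19, 9.05 and 9.97 CPM with IFN-β. The groups stood apart, and the lowest unstimulated library was above the highest IFN-β library by more than the range of either stimulated group. *Mthfd1* fell 6.04-fold under LPS (log2 fold change −2.59, SE 0.17, adjusted p = 2.1e-07, edgeR) and 3.4-fold under IFN-β (−1.77, SE 0.16, adjusted p = 1.2e-05, edgeR). Under IFN-β 98 of the 16260 genes tested (0.603%) had a larger fall, and under LPS 480 genes (2.95%) did. *Mthfd1* was higher with IFN-β than with LPS (0.83, SE 0.17, adjusted p = 0.00206, edgeR).

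*Mthfd1l*, the mitochondrial enzyme that releases formate (chr10:3973118-4167081, plus strand), gave 28.5, 23.2 and 22.7 CPM in unstimulated DCs, 7.89, 7.89 and 5.5 CPM with LPS and 17.9, 14.6 and 14 CPM with IFN-β. The 3 groups did not overlap. It fell 3.5-fold under LPS (log2 fold change −1.81, SE 0.16, adjusted p = 2.0e-06, edgeR) and 1.6-fold under IFN-β (−0.67, SE 0.15, adjusted p = 0.00353, edgeR). The libraries given IFN-β held 2.19-fold more *Mthfd1l* than those given LPS (log2 difference 1.13, SE 0.16, adjusted p = 1.6e-04, edgeR).

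*Mthfd2*, the mitochondrial dehydrogenase and cyclohydrolase known for its high levels in tumors and embryonic tissue, ran against the other folate enzymes among the members (chr6:83305691-83325908, minus strand). Its level was 40.7, 41.9 and 42.5 CPM in unstimulated DCs, 109, 115 and 116 CPM with LPS and 67, 67.4 and 77.5 CPM with IFN-β. The spread within the unstimulated libraries was small (SD 0.927 CPM, n = 3), and the groups did not overlap. *Mthfd2* rose 2.71-fold under LPS (log2 fold change 1.44, SE 0.07, adjusted p = 3.3e-08, edgeR) and 1.69-fold under IFN-β (0.76, SE 0.07, adjusted p = 1.4e-05, edgeR). It was lower with IFN-β than with LPS by 0.68 on the log2 scale (SE 0.07, adjusted p = 1.8e-05, edgeR). Its rise was not extreme among all genes, since 1819 of them (11.2%) rose more under LPS and 2029 (12.5%) rose more under IFN-β.

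*Atf4* (chr15:80255184-80257541, plus strand) had the highest level per kilobase of the members. It gave 109, 107 and 107 CPM in unstimulated DCs, 116, 126 and 119 CPM with LPS and 132, 134 and 131 CPM with IFN-β. The groups did not overlap, with the IFN-β libraries highest. The log2 fold change under IFN-β was 0.29 (SE 0.06, adjusted p = 0.0014, edgeR), a 1.23-fold rise with TMM factors that became −0.01 (adjusted p = 0.891) with scaling by library size alone. Under LPS it was 0.16 (SE 0.06, adjusted p = 0.0245, edgeR), a 1.12-fold difference that passed the threshold in 5 of the 9 fits without 1 library (not without any of the unstimulated libraries or LPS library B) and turned to −0.42 (adjusted p = 1.4e-04) with scaling by library size alone. The IFN-β libraries were above the LPS libraries by 0.14 (SE 0.06, adjusted p = 0.0637, edgeR), and by 0.14 with an adjusted p of 0.0404 with the library letter as a block. This call was gained in 4 of the 7 settings that kept all libraries, with a value of 0.41 for scaling by library size alone (adjusted p = 3.7e-04, edgeR).

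**Figure D2:**
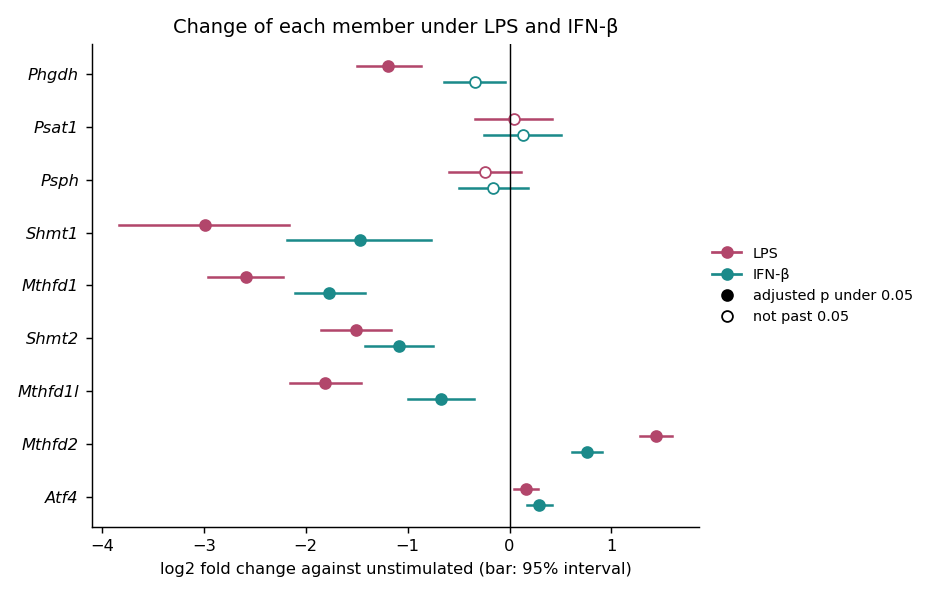
Log2 fold change of each member against the unstimulated libraries (horizontal axis) with its 95% interval from edgeR, LPS in red and IFN-β in teal, filled where the adjusted p was under 0.05. The 4 folate enzymes *Shmt1*, *Mthfd1*, *Shmt2* and *Mthfd1l* lie left of 0 under both stimuli, *Mthfd2* lies right of 0 at 1.44 and 0.76, and the intervals of *Psat1* and *Psph* cross 0.

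Set against LPS, IFN-β left 5 members higher (*Phgdh*, *Shmt1*, *Shmt2*, *Mthfd1* and *Mthfd1l*) and 1 lower (*Mthfd2*), where 49.1% of all genes tested were called (25.8% higher and 23.3% lower). Each of these 6 had been called under LPS, and in each the IFN-β mean lay between the unstimulated and the LPS mean. Across the 9 members the median difference was 0.43 on the log2 scale, against 0.02 over all genes.

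Levels of different genes were compared as CPM per kilobase of exon. The length joined all annotated exons of a gene, which can differ from the transcript expressed. The SD does not hold that error, so that close neighbours in the order are not set apart by it. In unstimulated DCs *Atf4* led with 45.7 ± 0.417 CPM per kilobase (SD, n = 3), followed by *Mthfd2* at 12 ± 0.266 and *Psat1* at 8.54 ± 1.55. *Mthfd1* (6.68 ± 1.19), *Shmt2* (6 ± 0.703) and *Mthfd1l* (5.59 ± 0.732) came next, and from *Psat1* down to *Mthfd1l* each neighbour overlapped the one before it. *Phgdh* (3.28 ± 0.358), *Psph* (0.977 ± 0.106) and *Shmt1* (0.807 ± 0.092) closed the order without overlap, though the lowest *Psph* library (0.908) was close to the highest *Shmt1* library (0.895).

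With LPS the levels of *Atf4* (51 ± 2.08 CPM per kilobase), *Mthfd2* (32.4 ± 1.08) and *Psat1* (8.79 ± 2.01) still led, and *Mthfd1* went from the fourth place to the seventh at 1.1 ± 0.153. Between them stood *Shmt2* (2.11 ± 0.173), *Mthfd1l* (1.6 ± 0.312) and *Phgdh* (1.44 ± 0.261), of which *Mthfd1l* and *Phgdh* overlapped. With IFN-β the order was *Atf4* (56 ± 0.601), *Mthfd2* (20.3 ± 1.71), *Psat1* (9.33 ± 1.21), *Mthfd1l* (3.5 ± 0.466), *Shmt2* (2.84 ± 0.639), *Phgdh* (2.59 ± 0.201) and *Mthfd1* (1.97 ± 0.319) in CPM per kilobase, with overlaps between *Mthfd1l* and *Shmt2* and between *Shmt2* and *Phgdh*. *Psph* and *Shmt1* were the lowest pair in all 3 conditions, without overlap between them.

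The ratio of counts of 2 enzymes in the same library does not depend on the scaling between libraries. *Mthfd2* had 1.64, 1.45 and 1.2 counts for each count of *Mthfd1* in unstimulated DCs, 26.2, 22.4 and 21.3 with LPS and 9.32, 7.44 and 7.78 with IFN-β. The groups did not overlap, and the LPS ratios were the highest. The ratio was 16.3-fold higher with LPS (log2 difference 4.03, SE 0.16) and 5.74-fold higher with IFN-β (2.52, SE 0.16) than in unstimulated DCs, each with an exact two-sided permutation p of 0.1. That is the smallest p that 3 against 3 libraries allow, and it was 0.18 after Benjamini-Hochberg adjustment over the 9 comparisons of 3 ratios.

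The mitochondrial *Mthfd1l* had 1.15, 0.803 and 0.642 counts for each count of the cytosolic *Mthfd1* in unstimulated DCs, 1.91, 1.54 and 1.01 with LPS and 2.49, 1.62 and 1.41 with IFN-β. The LPS ratios overlapped the unstimulated ones (log2 difference 0.78, SE 0.36, exact permutation p = 0.2), and the IFN-β ratios lay above them (1.08, SE 0.35, exact permutation p = 0.1). The tests and SEs of the ratios did not pair libraries of one letter. In each condition this ratio ran down from A to C. Within each letter it was lowest in the unstimulated library, higher with LPS and highest with IFN-β. *Shmt2* had 5.92, 5.97 and 5.95 counts for each count of *Shmt1* in unstimulated DCs, 9.56, 15.3 and 69.7 with LPS and 5.66, 7.47 and 11 with IFN-β. The unstimulated ratios were almost equal, and the LPS ratios were higher but scattered, with library C at 69.7 resting on its 3 counts of *Shmt1* (log2 difference 1.87, SE 0.86, exact permutation p = 0.1). Without that library the log2 difference was 1.02. With IFN-β the log2 difference was 0.38 (SE 0.28, exact permutation p = 0.4).

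A further set of ratios was chosen after the values were seen and is given as a description. *Mthfd2* relative to *Mthfd1l* went from 1.43 to 1.87 in unstimulated DCs to 13.8 to 21 with LPS and 3.75 to 5.53 with IFN-β. *Mthfd2* relative to *Shmt2* went from 2.05 to 2.49 to 16.1 to 18 with LPS and 7.07 to 9.54 with IFN-β. *Psat1* relative to *Phgdh* was 3.39 to 5.86 in unstimulated DCs, 6.73 to 14.5 with LPS and 5.1 to 7.5 with IFN-β, and its IFN-β libraries overlapped both other groups. Within each letter the IFN-β value of this ratio lay between the unstimulated and the LPS value. Of the summed counts of the 8 enzymes, *Mthfd2* held 24.2, 25.9 and 25.1% in unstimulated DCs, 60.3, 64 and 68% with LPS and 43.2, 45.1 and 48.5% with IFN-β. The sum of the 9 members, which adds *Atf4* to these enzymes, was 269 to 277 CPM in unstimulated DCs, 289 to 305 CPM with LPS and 283 to 291 CPM with IFN-β. *Atf4* alone had means of 108, 120 and 132 CPM in that order, so that this sum does not give the course of the enzymes.

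**Figure D3:**
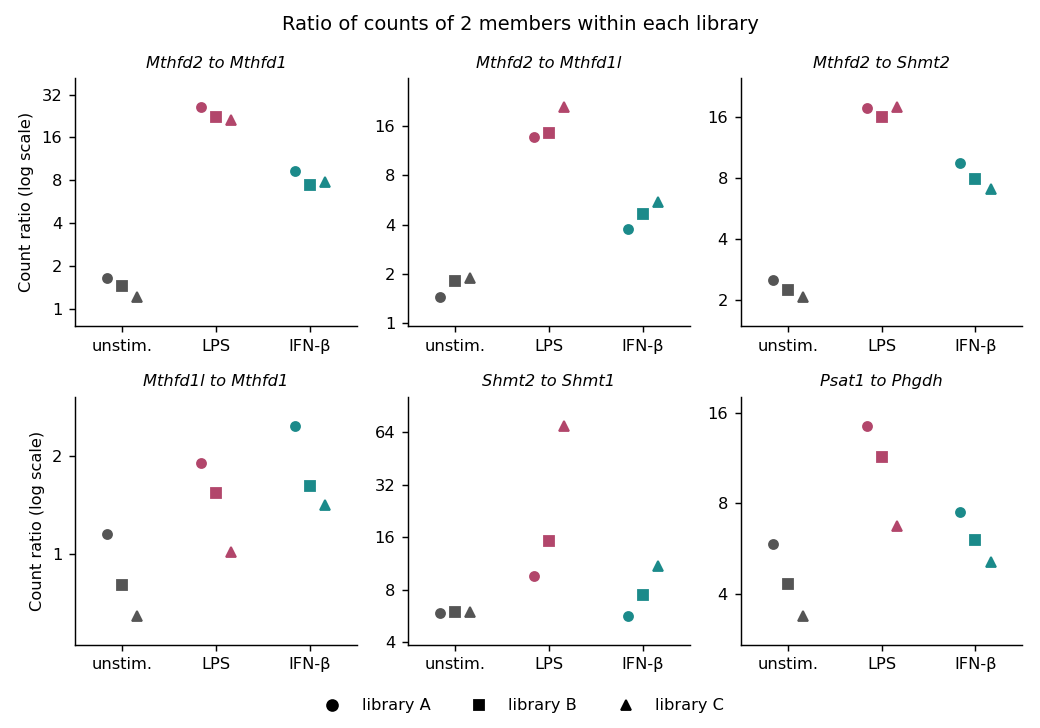
Count ratios of 2 members within each library on a log2-spaced vertical axis, by condition, with circles, squares and triangles for libraries A, B and C. The ratio of *Mthfd2* to *Mthfd1* lies between 1.2 and 1.64 in unstimulated DCs, between 7.44 and 9.32 with IFN-β and between 21.3 and 26.2 with LPS.

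The promoter windows of the members were read to show the sequence around the starts of transcripts that moved in opposite directions. RefSeq (GRCm38.p6) gave a window of 300 bases for each of the 9 members and a further one for *Psat1*, 10 windows in all. The sequences shown are *Mthfd2*, which rose (chr6:83317555-83317854, minus strand), *Mthfd1*, the member that fell with the smallest adjusted p under both stimuli (chr12:76254982-76255281, plus strand), and *Psat1*, which was not called (first window, chr19:15925010-15925309, minus strand). They run 5′ to 3′ on the strand of the gene, and capitals mark CCAAT on either strand (ATTGG when read on the gene's strand). The RefSeq starts of *Mthfd2* and *Psat1* lie inside the longer gene spans given above.
Mthfd2: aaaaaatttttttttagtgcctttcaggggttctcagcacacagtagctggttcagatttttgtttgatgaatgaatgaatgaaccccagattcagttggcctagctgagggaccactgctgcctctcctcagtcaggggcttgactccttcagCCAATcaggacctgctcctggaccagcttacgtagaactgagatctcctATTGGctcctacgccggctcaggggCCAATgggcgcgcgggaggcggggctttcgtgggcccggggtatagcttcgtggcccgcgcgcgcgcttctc
Mthfd1: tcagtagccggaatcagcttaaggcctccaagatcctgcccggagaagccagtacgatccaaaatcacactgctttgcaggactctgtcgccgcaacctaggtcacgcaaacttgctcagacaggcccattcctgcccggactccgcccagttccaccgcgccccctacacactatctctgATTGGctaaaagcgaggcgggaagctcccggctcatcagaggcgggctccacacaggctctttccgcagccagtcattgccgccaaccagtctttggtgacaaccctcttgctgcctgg
Psat1: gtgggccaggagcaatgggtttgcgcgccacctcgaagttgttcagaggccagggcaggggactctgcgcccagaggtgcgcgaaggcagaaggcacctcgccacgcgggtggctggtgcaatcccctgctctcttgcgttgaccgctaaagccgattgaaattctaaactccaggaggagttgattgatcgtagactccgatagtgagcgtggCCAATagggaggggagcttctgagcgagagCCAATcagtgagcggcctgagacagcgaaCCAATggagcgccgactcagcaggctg

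The motifs searched on both strands were TGATGNAA, the core of the C/EBP-ATF response element that ATF4 is known to bind, the E-box CACGTG and the core of the interferon-stimulated response element. None of them was found in the 10 member windows, where 3.97%, 7.15% and 3.44% of the 32851 RefSeq windows of this length held them. This says only that these letters are absent from these windows. CCAAT, which was added after the windows had been seen, was found in 7 of the 10 windows and in 37.4% of all windows. *Mthfd2* had it at −96, −47 and −22 relative to the start, *Psat1* at −36, −6 and 23, and *Mthfd1* at −69. The windows of *Shmt2*, *Mthfd1l* and the other window of *Psat1* had none, so that members that fell were found with it and without it.

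The 26 further folate and glycine genes, of which 20 passed the filter, moved in both directions. Under LPS 7 rose and 10 fell (median log2 fold change −0.52), and under IFN-β 5 rose and 8 fell (median −0.27). That was 85% called under LPS and 65% under IFN-β, where 68.2% and 46.9% of all genes tested were called. *Mthfsl*, a paralogue of the methenyltetrahydrofolate synthetase gene *Mthfs* whose reads may be split with it, rose by 1.98 and 1.19 on the log2 scale. *Slc19a1*, the reduced folate carrier of the plasma membrane, fell from 5.51 to 6.18 CPM to 0.399 to 0.637 CPM with LPS (log2 fold change −3.63, SE 0.18, adjusted p = 4.3e-08, edgeR), the largest fall of the list, and was 2.12 higher with IFN-β than with LPS. *Amt*, a component of the glycine cleavage system, fell by 3.15 under LPS and by 1.55 under IFN-β on few reads, since the LPS libraries held 0, 4 and 2 counts of it.

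Genes that share a reaction or a substrate with the members are given whether or not they were called. *Mthfd2l*, the paralogue of *Mthfd2*, gave 3.88 to 4.38 CPM in unstimulated DCs, 5.34 to 6.79 CPM with LPS and 2.65 to 4.5 CPM with IFN-β. Its log2 fold change was 0.51 under LPS (adjusted p = 0.0271, edgeR), which became −0.07 with scaling by library size alone, and −0.26 under IFN-β (adjusted p = 0.276, edgeR). *Tyms*, thymidylate synthase, rose under LPS (0.82, SE 0.14, adjusted p = 4.1e-04, edgeR, but 0.24 and not called with scaling by library size alone) and fell under IFN-β (−0.57, SE 0.15, adjusted p = 0.00881, edgeR), and the difference between the stimuli was −1.39 (SE 0.15, adjusted p = 2.4e-05, edgeR). *Slc25a32*, the mitochondrial folate carrier, fell by 0.62 under LPS (adjusted p = 1.2e-04, edgeR) and by 0.25 under IFN-β (adjusted p = 0.0426, edgeR, and 0.0598 with DESeq2). *Aldh1l1*, which releases the folate-bound carbon as CO2 in the cytosol, rose by 0.96 under IFN-β, and its LPS value of 0.36 came from overlapping groups and became −0.22 with scaling by library size alone. Its mitochondrial counterpart *Aldh1l2* stayed at or below 0.379 CPM, and *Gldc*, at or below 0.43 CPM, did not pass the filter. *Fpgs*, which adds glutamate to folates, fell by 2.40 under LPS (SE 0.26, adjusted p = 1.0e-05, edgeR). Under IFN-β it fell by 1.79 (SE 0.24, adjusted p = 1.7e-04, edgeR), and the stimuli did not differ past the threshold (adjusted p = 0.092, edgeR).

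Of the 18 tested genes of serine transport and use, 3 rose and 9 fell under LPS, and 4 rose and 7 fell under IFN-β. The share called was 66.7% under LPS and 61.1% under IFN-β, against 68.2% and 46.9% of all genes tested. *Slc1a5*, a carrier of neutral amino acids, went from 89 to 104 CPM in unstimulated DCs to 20.7 to 22.9 CPM with LPS (log2 fold change −2.16, SE 0.09, adjusted p = 1.3e-08, edgeR) and stood 1.28 higher with IFN-β than with LPS. *Slc38a1*, another such carrier, fell by 1.99 under LPS and by 1.20 under IFN-β. *Sfxn1*, the mitochondrial serine transporter, fell by 0.45 under LPS and by 0.59 under IFN-β. *Sptlc2*, a subunit of the serine palmitoyltransferase that begins sphingolipid synthesis, rose by 0.88 and 0.84, and *Serinc1* rose by 0.95 under LPS. The mean of *Serinc1* was 170 CPM in unstimulated DCs, 328 CPM with LPS and 232 CPM with IFN-β. *Sfxn2* rose by 0.59 under IFN-β, and *Serinc2* was called lower under IFN-β from overlapping groups (adjusted p = 0.0336, edgeR). *Serinc2* had 0.79 to 2 CPM in unstimulated DCs, 0.67 to 1.08 CPM with LPS and 0.525 to 0.823 CPM with IFN-β. *Sfxn3* was 0.88 higher with IFN-β than with LPS, with means of 70.2 CPM in unstimulated DCs, 23.6 CPM with LPS and 43.3 CPM with IFN-β.

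The ATF4 program, a list of targets and partners of ATF4 without the members, had 22 tested genes. Under LPS 6 were higher and 10 lower (median −0.44). Under IFN-β 6 were higher and 6 lower (median 0.19, which became −0.11 with scaling by library size alone). Those called made up 72.7% of the list under LPS and 54.5% under IFN-β, against 68.2% and 46.9% of all genes tested. *Asns*, asparagine synthetase and a frequently used target of ATF4, gave 9.14 to 10.6 CPM in unstimulated DCs, 7.62 to 9.61 CPM with LPS and 6.57 to 8.58 CPM with IFN-β. Neither its LPS value (−0.16, adjusted p = 0.273, edgeR) nor its IFN-β value (−0.31, adjusted p = 0.0625, edgeR) passed the test, though scaling by library size alone called both lower. *Slc7a11* and *Slc3a2*, the subunits of the cystine transporter, rose under LPS by 2.09 (SE 0.17, adjusted p = 1.1e-06, edgeR) and 1.84 (SE 0.07, adjusted p = 5.3e-09, edgeR). The mean of *Slc3a2* was 191 CPM in unstimulated DCs, 685 CPM with LPS and 362 CPM with IFN-β. For *Slc7a11* these means were 460, 1960 and 558 CPM. *Aldh18a1*, of proline synthesis, and *Eif4ebp1*, a repressor of translation initiation, fell under LPS by 1.69 and 1.27. With IFN-β their means were 16.9 and 19.3 CPM, against 25.6 and 24.9 CPM in unstimulated DCs. Under IFN-β *Ddit3* and *Atf3*, transcription factors of the stress response, each rose by 1.15, while *Gdf15* and *Atf5* fell by 1.16 and 0.82. In the order unstimulated, LPS and IFN-β, mean CPM were 194, 627 and 429 for *Atf3* and 9.38, 11.6 and 20.8 for *Ddit3*. In that order they were 2.59, 1.22 and 1.15 for *Gdf15* and 22.3, 13.7 and 12.6 for *Atf5*. Against LPS, IFN-β left *Trib3* 1.20 higher and *Aldh18a1* 1.09 higher, and *Slc7a11* and *Nupr1* lower by 1.81 and 1.37 on the log2 scale.

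The kinases that phosphorylate eIF2α and their partners, 8 genes, split as 4 higher and 3 lower under LPS. Under IFN-β 3 were higher and 2 lower. This is 87.5% called under LPS and 62.5% under IFN-β, against 68.2% and 46.9% of all genes tested. With scaling by library size alone, 2 were higher and 5 lower under each stimulus. The medians then were −0.32 (LPS) and −0.30 (IFN-β) rather than 0.26 and 0.01. *Eif2ak2*, which encodes the RNA-activated kinase PKR and is a known interferon target, rose by 2.08 under LPS (SE 0.12, adjusted p = 1.3e-07, edgeR) and by 1.61 under IFN-β (SE 0.12, adjusted p = 4.7e-06, edgeR). *Eif2ak3*, the kinase PERK of the endoplasmic reticulum, fell from 38.8 to 42.4 CPM to 11.9 to 15 CPM with LPS (log2 fold change −1.57) and to 24.2 to 25.5 CPM with IFN-β (−0.70). *Ppp1r15b*, a subunit of the phosphatase that removes the mark, rose by 1.70 and 0.72. *Gcn1*, the activator of the amino acid sensing kinase GCN2, fell by 0.45 and 0.64.

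De novo purine synthesis takes up the folate carbon that MTHFD1 delivers at the steps of *Gart* and *Atic*. Genes of this pathway fell in 13 of 15 cases under LPS (median −1.24) and in 11 of 15 under IFN-β (median −0.65). The share called was 93.3% under LPS and 73.3% under IFN-β, against 68.2% and 46.9% of all genes tested. *Gart*, which uses 10-formyltetrahydrofolate, went from 62.3 to 73.3 CPM to 16.6 to 20.1 CPM with LPS (log2 fold change −1.92, SE 0.10, adjusted p = 5.7e-08, edgeR). It stood at 27.8 to 33.5 CPM with IFN-β, and 19.7% of its exon length lay opposite an antisense transcript. *Atic*, which also takes its carbon from 10-formyltetrahydrofolate, went from 69.5 to 80.8 CPM to 26.9 to 35.2 CPM with IFN-β (−1.23, SE 0.12, adjusted p = 1.6e-05, edgeR). With LPS *Atic* stood at 21.5 to 26.8 CPM. *Pfas* fell by 1.87 and 1.31. *Prpsap1*, a partner of phosphoribosyl pyrophosphate synthetase, was the 1 gene called higher under LPS (0.41, which became −0.17 with scaling by library size alone), and *Adssl1* was 1.57 higher with IFN-β than with LPS.

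Of the 16 proliferation genes, 15 fell under LPS (median −1.70) and 14 fell under IFN-β (median −0.68). Between the stimuli, 15 were higher with IFN-β than with LPS and 1 was lower (median 1.08). Of all genes tested, 25.8% were called higher and 23.3% lower in this comparison. The share called was 93.8% under each stimulus, against 68.2% (LPS) and 46.9% (IFN-β) of all genes tested. *Ccna2* went from 14.4 to 16.2 CPM to 1.84 to 2.09 CPM with LPS (log2 fold change −2.94, SE 0.10, adjusted p = 4.8e-09, edgeR) and *Tk1* fell by 3.01 under LPS and by 0.98 under IFN-β. *Birc5* fell by 0.99 under IFN-β, with means of 8.09 CPM in unstimulated DCs, 1.3 CPM with LPS and 4.08 CPM with IFN-β. *Pcna* rose by 0.32 under IFN-β (0.01 with scaling by library size alone). The mean of *Mki67* did not fall under LPS, at 140 ± 19 CPM in unstimulated DCs and 143 ± 12.4 CPM with LPS (SD, n = 3). *Mki67* had a log2 difference of −0.47 between IFN-β and LPS (−0.19 and not called with scaling by library size alone). *Shmt1*, *Shmt2*, *Mthfd1* and *Mthfd1l* fell in the same libraries as most of these genes and *Mthfd2* rose in them. The part of proliferation in the member values was not tested.

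**Figure D4:**
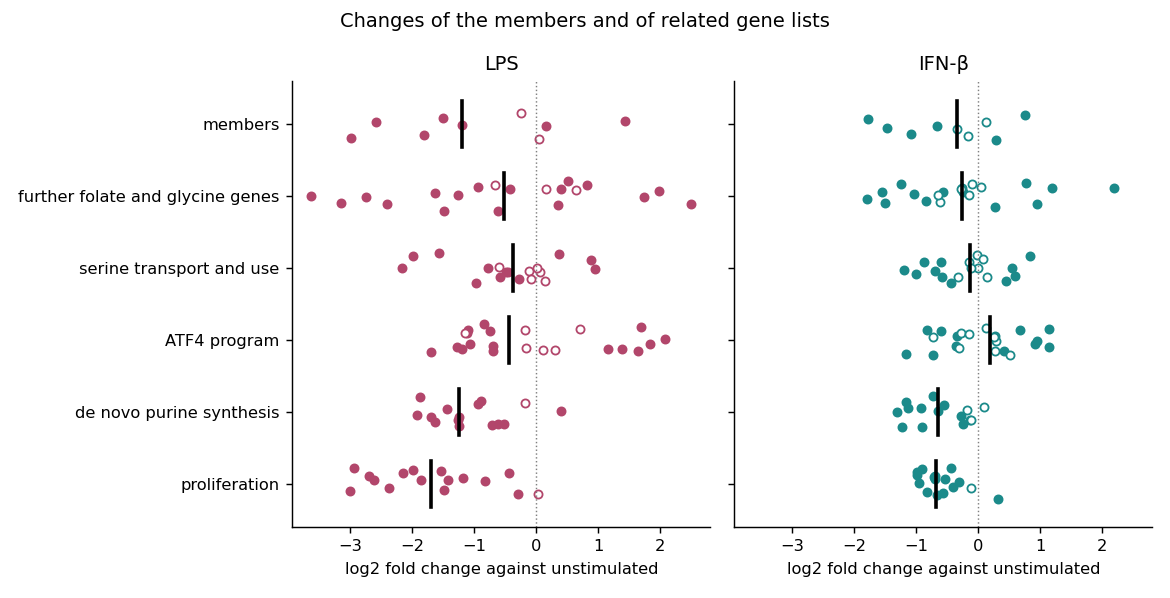
Log2 fold change against unstimulated (horizontal axes) of the tested genes of the members and of 5 related lists, 1 point a gene, under LPS (left) and IFN-β (right), filled where the adjusted p was under 0.05, with the list's median as a black bar (vertical scatter has no meaning). The median lies at −1.24 for purine synthesis and −1.70 for proliferation under LPS, and the folate and ATF4 lists spread over both sides of 0.

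The libraries of one letter shared part of their deviation from the group means. *Psat1* was highest in library A and lowest in library C in each of the 3 conditions. *Phgdh*, *Mthfd1* and *Mthfd2* were highest in library C and lowest in library A in each of them. *Shmt2* was lowest in library A in all 3 conditions, and *Mthfd1l* was lowest in library C in all 3. These are descriptions of 3 libraries a letter, and the labels do not say what a letter stands for.

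**Figure D5:**
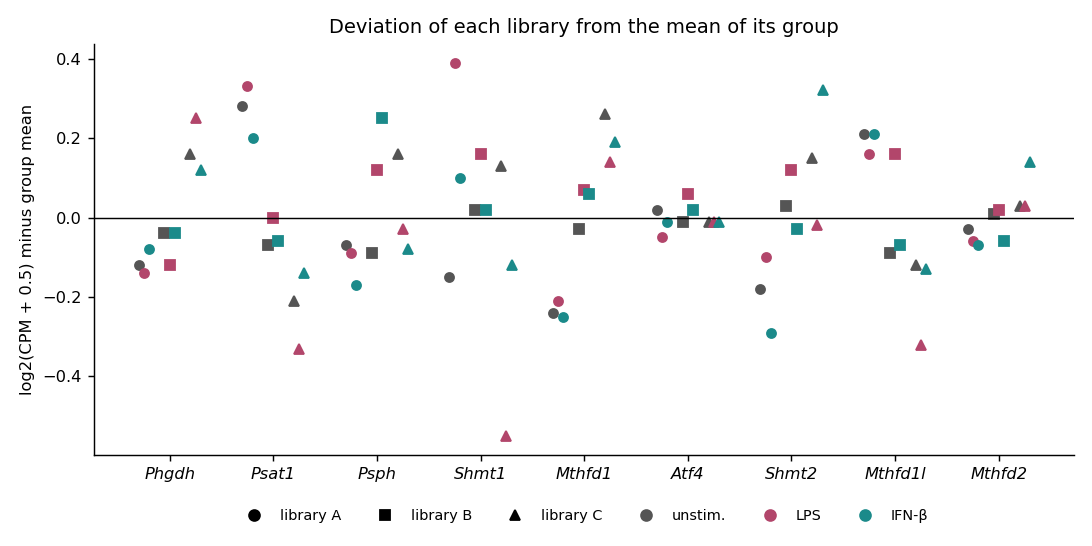
Deviation of each library from the mean of its group on the log2(CPM + 0.5) scale (vertical axis) for the 9 members, with circles, squares and triangles for libraries A, B and C and colors for the conditions. *Psat1* deviates upward in library A and downward in library C in each condition, and *Mthfd1* does the opposite.

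The genes whose levels were most like those of a member were taken as those with the highest Pearson r of log2 CPM over the 9 libraries, a measure that mostly follows the 3 conditions. For *Mthfd1* they were *Cad* and *Elp2* (r = 0.998 each), for *Mthfd2* *Pstpip2* and *Rab20* (0.998 each), for *Mthfd1l* *Vsir* (0.995) and *Gpi1* (0.994) and for *Shmt2* *Anapc15* (0.996) and *Ubac1* (0.994). *Shmt1* was most like *Mutyh* (0.992) and *Tedc1* (0.990), and *Phgdh* was most like *Ttc3* (0.994) and *Ugt1a7c* (0.993). For *Psat1*, whose levels followed the library letter, they were *Selenom* (0.993) and *Ecm1* (0.980), for *Atf4* *Gm43272* (0.982) and *Ppef1* (0.973), and for *Psph* *Gm11532* (0.925) and *Tfcp2* (0.908).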

How the data were processed

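RNA from 9 libraries of bone marrow-derived DCs was depleted of ribosomal RNA and sequenced by the authors. The raw counts of each gene, as deposited by the authors, were neither normalized nor filtered, and were made on GRCm38 (mm10). The submitters' processing notes name Trim Galore 0.6.0 and STAR 2.7.8a. The strand setting of the counting is not given in the sources used here. The knockdown experiments of the study were not analysed here.

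The study's methods were followed in R 4.3.3 with edgeR 4.0.16 (and limma 3.58.1): TMM factors (0.7829 to 1.262), a negative binomial model with a term per condition over all 9 libraries, quasi-likelihood F-tests and Benjamini-Hochberg adjustment over the 16260 genes kept by filterByExpr, with a threshold of 0.05. CPM used TMM-scaled library sizes, and log2 values of single libraries a pseudocount of 0.5 CPM. The floor of 3 counts corresponds to 0.0674 to 0.106 CPM and covers counting error only. Coordinates and exon lengths are from GENCODE M21, which held 55230 of the 55471 identifiers. The fits were tested on simulated data in which 200 genes changed. Under LPS 68.2% of all genes tested were called, so that the simulated data could not check the scaling.

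The library letters come from the sample titles. Libraries of the same letter deviated together from their group means (correlations of 0.115 to 0.47 in 9 of 9 pairs, against −0.4 to 0.0279 in the 18 pairs of different letters), so a fit with the letter as a replicate block was set beside the main one. Each group was centred on its own mean, so that the low values of different letters partly follow from those of the same letter.

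The members and the gene lists were chosen with earlier results of these data known. The genes named are all members, genes that share a reaction with them and, from each other list and comparison, up to 2 with the largest rise and 2 with the largest fall among those called. Of the genes this rule names, 2 are not reported here. Alternatives were DESeq2 1.42.0, other scaling, other filters on low counts, 2 groups only, the block and leaving out each library.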

Additional observations from a re-analysis of the deposited data

How the results depend on the processing

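Over the 9 members and 3 comparisons, 429 values were recomputed under other settings. Of these, 392 kept their sign and their side of the threshold, 13 lost the threshold, 13 gained it and 11 changed sign. DESeq2 kept all 27 member calls. Scaling by library size alone changed the sign of 4 values, *Psat1* under LPS (−0.54, adjusted p = 0.00548) and under IFN-β (−0.17, adjusted p = 0.33) and *Atf4* under LPS (−0.42, adjusted p = 1.4e-04) and under IFN-β (−0.01, adjusted p = 0.891). The other sign changes were in values called in neither fit. They were *Psat1* under LPS with upper-quartile factors (−0.05) and fits without 1 library, which gave −0.14 to 0.19 for *Psat1* under LPS, −0.07 to 0.26 for *Psat1* between the stimuli and −0.08 to 0.17 for *Psph* between the stimuli. Scaling by library size alone moved the median of all genes from −0.04 to −0.62 under LPS, from −0.02 to −0.32 under IFN-β and from 0.02 to 0.29 between the stimuli, and the share of calls that were higher from 48.1 to 21.9%, from 50.3 to 22.3% and from 52.5 to 77.9%. With this scaling, 13 rather than 7 of the 18 tested genes of serine transport and use were called between the stimuli. Of the 8 genes of the eIF2 kinases and their partners, 3 rather than 5 were called. In this comparison 49.1% of all genes tested were called with TMM factors. The LPS call of *Atf4* was also lost with upper-quartile factors (adjusted p = 0.318), without a filter (0.209) and with the 2 groups only (0.0579). The IFN-β call of *Phgdh* was gained with library size alone (−0.65, adjusted p = 0.00359), with upper-quartile factors (0.0341) and with the 2 groups only (0.0335). The replicate block gained the calls of *Phgdh* under IFN-β (−0.34, adjusted p = 0.00638) and of *Atf4* between the stimuli (0.14, adjusted p = 0.0404) and changed no other member call. *Shmt1* could not be tested with at least 10 counts in every library, since 1 LPS library held 3. The difference of *Atf4* between the stimuli also passed the threshold with upper-quartile factors (0.15, adjusted p = 0.049), with at least 10 counts in every library (0.14, adjusted p = 0.0436) and without LPS library B (adjusted p = 0.0488). The log2 difference in the ratio of *Mthfd2* to *Mthfd1* stayed within 3.91 to 4.13 for LPS, and within 2.40 to 2.62 for IFN-β, when single libraries were left out.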
